A study of Homo sapiens with 4 samples.

Results

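The TRIM (tripartite motif) genes encode a family of ubiquitin ligases, and their transcripts were followed in MV4;11 cells after 24 h with CU-T12-9, a synthetic compound that activates the heterodimer of Toll-like receptors TLR1 and TLR2. Members were the rows of the deposited count table whose symbol is TRIM followed by a number and at most 1 letter, 72 of 56638 symbols. Of these, 50 had at least 1 read, 39 had enough reads to be tested and 22 had no read in any library. Readthrough transcripts, antisense RNAs and pseudogenes with longer names fall outside this rule, as do family members with other names such as PML.

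MV4;11 is an established human acute myeloid leukaemia line with the KMT2A-AFF1 fusion gene and a FLT3 internal tandem duplication. The CU-T12-9 group held 2 libraries of parental cells at 1 µg/mL for 24 h, and the DMSO group held 2 libraries of the same parental cells with vehicle. The sample label names the vehicle as DMSO and the treatment protocol names it as PBS, so an effect of DMSO itself cannot be told apart from that of the agonist. All 4 libraries came from a single line. The labels do not state separate cultures for the libraries of each group, so a p-value here reflects the spread among these libraries, and that spread may be technical.

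Library totals ranged from 23087102 to 25867733 reads. All 10 myeloid leukaemia markers looked at, CD33, FLT3, HOXA9 and SPI1 among them, were read well enough to be tested, and all 10 were called, 5 higher and 5 lower. The granule genes MPO and ELANE fell most. MPO had 5 and 5 reads under CU-T12-9 and 150 and 155 under DMSO (log2 fold change -4.78). It passed the filter on read counts in neither CU-T12-9 library, and entered the test only through the DMSO group, where it was higher. ELANE fell by 2.80 on the log2 scale. The part of this shift in the TRIM changes was not tested. The 13 markers of T cells, B cells, erythroid cells and epithelial or stromal cells had between 0 and 15 reads in a library, with the erythroid gene HBB at 0. Levels are in CPM, the field's depth-scaled read count, with each library's depth adjusted by TMM normalisation. In bulk RNA, fewer cells of a type and less RNA per cell cannot be told apart.

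A typical TRIM protein carries a RING finger that binds the ubiquitin-loaded E2 enzyme, then B-box zinc fingers and a coiled coil through which the proteins pair, and then a variable end that selects the substrate. The most frequent end is a PRY-SPRY domain, and other members end in bromodomains, NHL repeats, a membrane anchor or no known domain. Many members are induced by interferon and act on viral proteins or on the RIG-I, STING and Toll-like receptor pathways, while others, such as TRIM28, repress transcription in every cell type.

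Promoter sequences of members with an interferon response element are shown because many TRIM genes are known to be induced by interferon. RefSeq promoter windows (GRCh38.p14, 250 bases before to 50 after the gene start) were matched by symbol for 56 of the 72 members and 28 of the 39 tested ones. TRIM8, TRIM13 and TRIM22 are among the tested members without a window, so no motif was searched for them. The core of the interferon response element (TTTC, any 2 bases, TTTC, on either strand) stood in the windows of 10 of the 56 members (17.9%), against 4.38% of the 27305 genes with a window. A list of interferon-inducible TRIM genes was written from general knowledge. The core was found for 6 of its 10 matched members, and for 4 of the 46 other matched members. TRIM5, which blocks incoming retroviral capsids, and TRIM14, an adaptor of antiviral signalling at mitochondria, each hold 1 match close to the gene start. Their 250 upstream bases are printed 5′ to 3′ on the gene's strand, with the match in capitals.
TRIM5, chr11:5685075-5685324, minus strand: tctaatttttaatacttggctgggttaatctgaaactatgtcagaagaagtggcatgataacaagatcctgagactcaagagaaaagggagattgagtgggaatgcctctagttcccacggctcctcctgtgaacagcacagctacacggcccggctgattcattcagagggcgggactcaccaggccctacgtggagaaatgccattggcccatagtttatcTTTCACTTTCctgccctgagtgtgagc
TRIM14, chr9:98119223-98119472, minus strand: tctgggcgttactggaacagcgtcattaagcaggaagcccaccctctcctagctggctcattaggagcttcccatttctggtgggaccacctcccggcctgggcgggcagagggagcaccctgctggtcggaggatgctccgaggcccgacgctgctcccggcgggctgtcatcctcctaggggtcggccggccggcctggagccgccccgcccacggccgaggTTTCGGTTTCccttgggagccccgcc

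The match of TRIM5 began 27 bases and that of TRIM14 began 26 bases before the start. In the other matched members that were tested or belong to the interferon list, 30 bases around the match are given in the same way, again with the core in capitals. In TRIM21 and TRIM26 the capitals cover 2 matches that overlap, and in TRIM21, TRIM44 and TRIM16 the core reads on the opposite strand.
TRIM21, chr11:4393663-4393692, minus strand: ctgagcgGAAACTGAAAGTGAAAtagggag
TRIM26, chr6:30213578-30213607, minus strand: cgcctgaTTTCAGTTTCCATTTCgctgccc
TRIM34, chr11:5624901-5624930, plus strand: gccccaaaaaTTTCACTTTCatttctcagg
TRIM69, chr15:44736456-44736485, plus strand: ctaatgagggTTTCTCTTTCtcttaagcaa
TRIM44, chr11:35662730-35662759, plus strand: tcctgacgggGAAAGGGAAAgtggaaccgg
TRIM16, chr17:15683012-15683041, minus strand: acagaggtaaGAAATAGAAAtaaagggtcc

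Of the 7 tested members with the core, 4 were higher (TRIM5, TRIM21, TRIM44 and TRIM69), 2 were lower (TRIM14 and TRIM26) and 1, TRIM16, did not pass. Of all genes tested, 32% were higher and 33.2% lower. A link between the core and the direction of change was not tested. The gamma-activated site (TTC, any 3 bases, GAA, alike on both strands) stood in 12 of the 56 members' windows (21.4%), in 3 of the 28 tested members' windows (10.7%) and in 9.38% of all genes. An NF-kB motif (GGG, any 2 bases, TTTCC, on either strand) stood in 1 member, the unread TRIM31 (1.79%), and in 2.33% of all genes. A match describes letters in a window and is not a binding site, and no match says only that these letters are not there.

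The comparison of CU-T12-9 with DMSO asks how the agonist changed the transcripts of this leukaemic line. Within the family, 18 of 39 tested members were higher and 14 were lower in CU-T12-9, and 7 did not pass (edgeR quasi-likelihood test, Benjamini-Hochberg adjusted p under 0.05 over all 14018 genes tested). Over all genes tested, 65.2% were called, 32% higher and 33.2% lower, against 82.1%, 46.2% and 35.9% of the tested members. Among genes averaging at least 10 CPM, 21 of 26 members (80.8%) and 74.2% of all 9029 such genes were called. The family's median log2 fold change was 0.11, and that of all genes tested was 0.00. All 39 tested members passed the expression filter in both DMSO libraries, so none entered the test only because it rose. The reverse holds for 3 of them, TRIM6, TRIM45 and TRIM47, which did not pass it in both CU-T12-9 libraries. These 3 entered only through the group where they were higher. They are counted among the 14 lower members, and among those with a log2 fold change of -1 or below.

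By domain, the 21 tested members with a PRY-SPRY or SPRY end divided into 8 higher and 8 lower, with a median log2 fold change of -0.02. That is 38.1% each way, near the 32% higher and 33.2% lower of all genes tested. Of the 5 tested members with no known end domain, 4 were higher (80%) and 1 was lower (20%), with a median of 0.42. With only 5 genes, a difference between the classes was not tested.

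Most changes were modest in size. The log2 fold change reached 1 for 5 higher members and -1 for 6 lower members, or 12.8% and 15.4% of those tested, against 11% and 9.29% of all genes. Tested against a fold of 2, only TRIM13, TRIM22 and TRIM36 (higher) and TRIM9 and TRIM45 (lower) passed among the members, and 12.8% of all genes did. The 2 groups did not overlap in all 32 called members and in 4 of the 7 others, as was the case for 82.3% of all genes.

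**Figure D1:**
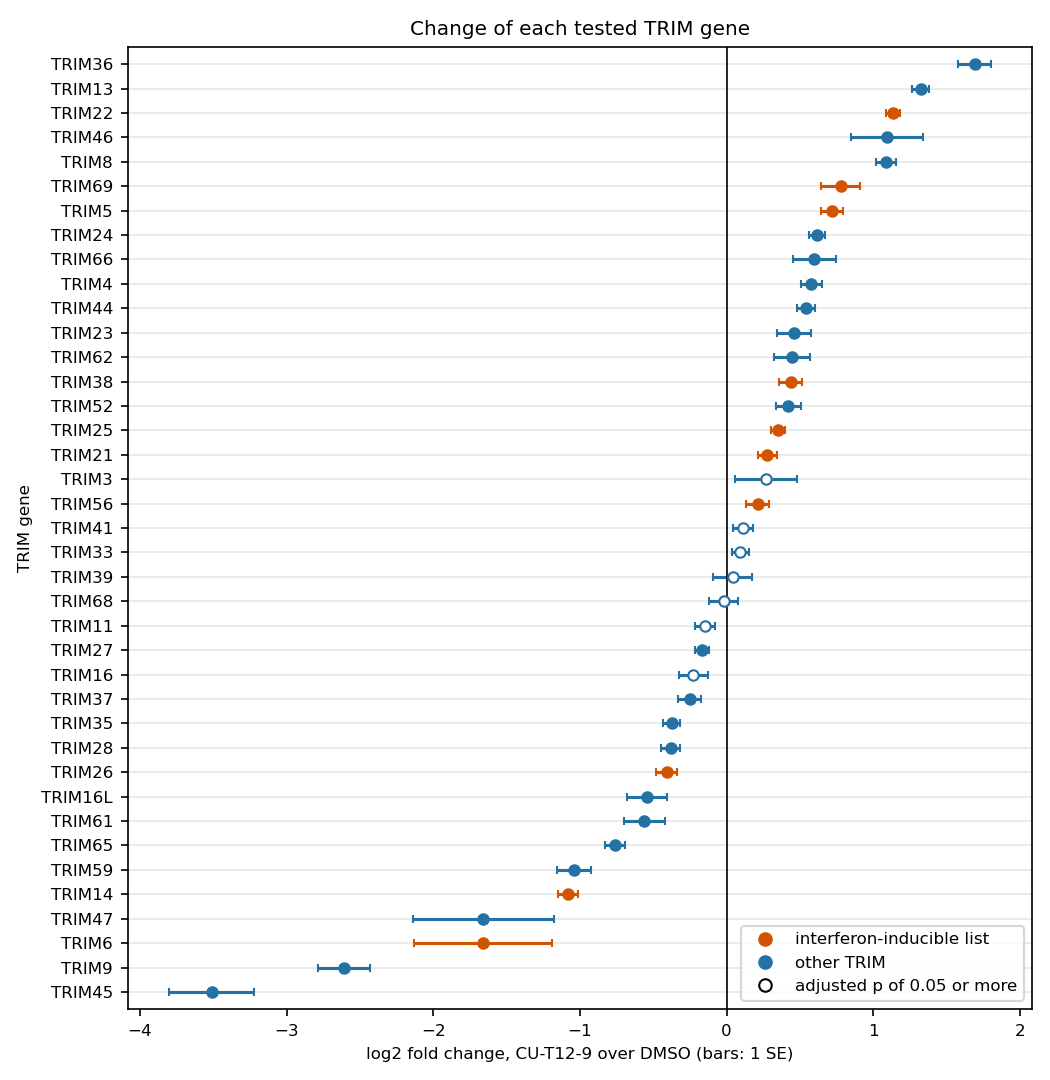
The log2 fold change of CU-T12-9 over DMSO is plotted for each of the 39 tested TRIM genes with bars of 1 SE, from TRIM36 at 1.69 to TRIM45 at -3.51. Open points did not pass the test, and orange points are the 10 tested genes of the interferon-inducible list, of which TRIM22 was highest and TRIM6 lowest.

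Within the interferon-inducible list, TRIM22 had the largest rise. TRIM22, an interferon-induced ligase that restrains several viruses, had 202 and 206.5 CPM in the CU-T12-9 libraries, against 94.1 and 91.8 CPM in the DMSO libraries. The groups were well apart, with a log2 fold change of 1.14 (SE 0.05, edgeR adjusted p = 1.01e-07), a 2.2-fold rise. TRIM5 stood at 33.7 and 33.1 CPM under CU-T12-9, against 21 and 19.6 CPM under DMSO (log2 fold change 0.72, SE 0.07, edgeR adjusted p = 2.89e-05). TRIM69, a ligase that hinders replication of vesicular stomatitis virus, rose by 0.78 on the log2 scale (SE 0.13, edgeR adjusted p = 6.88e-04), with 8.72 and 9.11 CPM under CU-T12-9 and 5.57 and 4.80 CPM under DMSO.

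TRIM25, the ligase that ubiquitinates RIG-I, was already well read and rose only a little. It had 285 and 288 CPM under CU-T12-9, against 222 and 227 CPM under DMSO (log2 fold change 0.35, SE 0.05, edgeR adjusted p = 1.53e-04). TRIM38, which restrains Toll-like receptor signalling, rose by 0.44, and TRIM21, the cytosolic antibody receptor, by 0.28. TRIM56, which acts in STING and TLR3 signalling, had the smallest called rise of the list, 0.21 (edgeR adjusted p = 0.0379). The calls of TRIM21 and TRIM56 did not hold in every setting: without the first or the second DMSO library the adjusted p was 0.059 and 0.0503 for TRIM21 and 0.308 and 0.0911 for TRIM56, and DESeq2 gave 0.105 for TRIM56.

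TRIM14 went the other way. It had 34.8 and 39.2 CPM in the CU-T12-9 libraries, against 77.9 and 78.2 CPM in the DMSO libraries. Both CU-T12-9 libraries lay below both DMSO libraries. The log2 fold change was -1.08 (SE 0.07, edgeR adjusted p = 1.10e-06), a 2.11-fold fall. TRIM26, a ligase with roles in IRF3 turnover, fell by 0.41 on the log2 scale, with 30.9 and 30.5 CPM under CU-T12-9 against 39.1 and 42.5 CPM under DMSO. TRIM6, which makes free ubiquitin chains that activate IKK-epsilon, was barely read, with 4 and 4 reads under CU-T12-9 and 13 and 15 under DMSO. Its fall (log2 fold change -1.66, SE 0.47, edgeR adjusted p = 0.0122) lost its call in DESeq2 (adjusted p = 0.133), without the first CU-T12-9 library (0.0516) and without the first or the second DMSO library (0.053 and 0.133).

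Altogether, 7 of the 10 tested genes of the interferon-inducible list were higher (70%, against 32% of all genes tested) and 3 were lower (30%, against 33.2%), with a median log2 fold change of 0.32. Of the 29 other tested members, 11 were higher and 11 lower, with a median of 0.04. The eleventh gene of the list, TRIM34, a close relative of TRIM5, had 1 and 1 reads under CU-T12-9 and 3 and 0 under DMSO, and was not tested. TRIM5, TRIM6, TRIM34 and TRIM22 lie close together on chromosome 11 (RefSeq gene order), and in this cluster 2 genes rose, 1 fell and 1 was nearly unread. TRIM22 lies within the span of TRIM5 on the opposite strand in GENCODE v29, without shared exons. TRIM6 and TRIM34 share exons on the same strand with the readthrough gene TRIM6-TRIM34, which was listed at 0 in all libraries. The part of this overlap in the low counts of TRIM6 and TRIM34 was not tested.

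Ligases that act on inflammatory signalling outside the interferon list showed rises and falls. TRIM8, which promotes NF-kB activation downstream of tumour necrosis factor, had 87 and 96.2 CPM in the CU-T12-9 libraries, against 41.5 and 44.8 CPM in the DMSO libraries. The groups were well apart, with a 2.12-fold rise and a log2 fold change of 1.09 (SE 0.07, edgeR adjusted p = 1.20e-06). TRIM9, a brain-enriched ligase that restrains NF-kB by binding the beta-TrCP adaptor, had 1.28 and 1.55 CPM under CU-T12-9, against 8.14 and 9.19 CPM under DMSO. This was a 6.11-fold fall (log2 fold change -2.61, SE 0.18, edgeR adjusted p = 1.76e-06).

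TRIM4, which ubiquitinates RIG-I, rose by 0.58 on the log2 scale. TRIM65, which ubiquitinates the related sensor MDA5, fell by 0.76, with 64.1 and 57 CPM under CU-T12-9 against 103.5 and 101.8 CPM under DMSO. TRIM27, a ligase that restrains IKK kinases, fell by only 0.16 (edgeR adjusted p = 0.0141), and this call was lost in DESeq2 (adjusted p = 0.0803) and without the first or the second DMSO library (0.132 and 0.14). TRIM62 rose by 0.45, a call lost without the first DMSO library (adjusted p = 0.142). TRIM44, which has a deubiquitinase-like zinc finger in place of a RING, rose by 0.54, and TRIM23, which ends in an ARF GTPase domain, by 0.46. TRIM52 rose by 0.42, and TRIM35 fell by 0.37.

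TRIM13 and TRIM59 are the 2 members that end in a membrane anchor, and they moved in opposite directions. TRIM13, an endoplasmic reticulum ligase whose gene lies in a region often deleted in chronic lymphocytic leukaemia, had 134 and 145 CPM under CU-T12-9, against 56.4 and 55 CPM under DMSO. The 2.5-fold rise (log2 fold change 1.32, SE 0.06, edgeR adjusted p = 1.09e-07) left a wide gap between the groups. DLEU2, which encloses TRIM13 on the opposite strand and overlaps its exons in GENCODE v29, had 108 and 130 reads under CU-T12-9 and 339 and 251 under DMSO, a log2 fold change of -1.18 in the opposite direction. Reads of such opposite-strand pairs cannot be told apart without the strand setting of the count, which the sources used here do not state. TRIM13 also shares exons with KCNRG on the same strand, where a strand setting would not separate the reads. KCNRG had 14 and 12 reads under CU-T12-9 and 7 and 8 under DMSO, and did not pass (log2 fold change 0.90, edgeR adjusted p = 0.0823). Exon overlap with another gene on either strand was found for 17 tested members, TRIM5, TRIM8, TRIM25 and TRIM47 among them. Same-strand exon overlap was found for 8 tested members. The part of these overlaps in the changes was not tested.

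TRIM59, a ligase often raised in proliferating tumour cells, had 6.29 and 5.83 CPM under CU-T12-9, against 12.7 and 12.2 CPM under DMSO (log2 fold change -1.04, SE 0.11, edgeR adjusted p = 4.08e-05). Its exons overlap those of SMC4, a condensin subunit on the opposite strand, which fell by 0.47 on the log2 scale. The part of these reads in the fall of TRIM59 was not tested. TRIM45, the member that ends in a filamin repeat and is known to restrain MAP kinase signalling, had the largest fall of the family. It had 6 and 7 reads (0.257 and 0.309 CPM) under CU-T12-9, against 88 and 76 reads (3.38 and 3.17 CPM) under DMSO, a log2 fold change of -3.51 (SE 0.29, edgeR adjusted p = 6.44e-06).

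Microtubule-binding members of the COS-FN3-SPRY class diverged as well. TRIM36, a ligase known from the sperm acrosome and from cell division, had the largest rise of the family, 3.23-fold. It stood at 19.1 and 21.8 CPM under CU-T12-9, against 6.18 and 6.47 CPM under DMSO (log2 fold change 1.69, SE 0.11, edgeR adjusted p = 1.37e-06). TRIM46, which bundles microtubules in the axon, had 3.04 and 2.34 CPM under CU-T12-9 against 1.38 and 1.13 CPM under DMSO, and rose by 1.09 on the log2 scale (SE 0.25, edgeR adjusted p = 0.0037). TRIM9 belongs to this class too, so that 2 of its 3 tested members rose and 1 fell, and TRIM67 had no read.

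**Figure D2:**
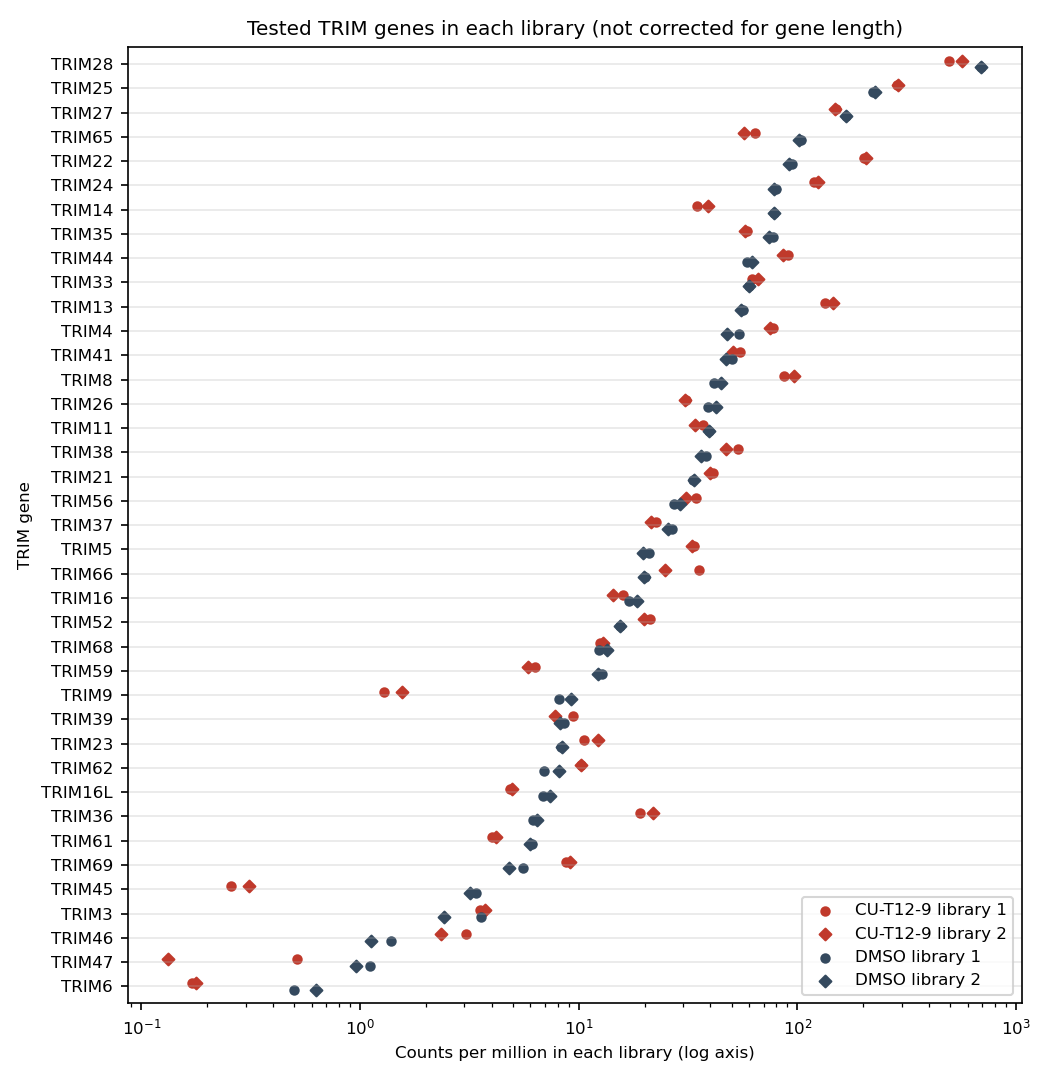
CPM on a log axis in each of the 4 libraries are plotted for the 39 tested TRIM genes, with CU-T12-9 in red and DMSO in dark blue; the levels are not corrected for gene length. The CU-T12-9 libraries are furthest apart for TRIM47, at 0.513 and 0.133 CPM, and TRIM45 and TRIM9 stand furthest to the left of their DMSO values.

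The nuclear members that end in a PHD finger and a bromodomain are transcriptional cofactors. TRIM28, also called KAP1, is the corepressor that KRAB zinc finger proteins recruit to silence retroelements. It had 495.5 and 565 CPM in the CU-T12-9 libraries, against 692 and 689 CPM in the DMSO libraries, and both CU-T12-9 values were lower (log2 fold change -0.38, SE 0.06, edgeR adjusted p = 6.61e-04). TRIM24, a nuclear receptor cofactor, moved the other way, with 119 and 124 CPM under CU-T12-9 against 80 and 78.3 CPM under DMSO (log2 fold change 0.62, SE 0.05, edgeR adjusted p = 8.05e-06). TRIM66 rose by 0.60 (edgeR adjusted p = 0.00556) with an uneven pair of 35.5 and 24.8 CPM under CU-T12-9, against 20.1 and 19.8 CPM under DMSO. Its log2 fold change was 0.35 without the first CU-T12-9 library and 0.83 without the second. TRIM66 shares exons with RPL27A, a far more abundant ribosomal protein gene on the opposite strand that fell by 0.44. For TRIM33, a regulator of SMAD signalling, the difference was 0.09 with a 95% interval of -0.04 to 0.23, and it did not pass.

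The remaining called members fell by small steps or were little read. TRIM61 and TRIM16L fell by 0.56 and 0.54, and TRIM37, a ligase mutated in mulibrey nanism, by 0.25. Their calls were lost in DESeq2 for TRIM61 and TRIM37 (adjusted p = 0.0588 and 0.112), without the second DMSO library for TRIM16L and TRIM37 (0.0507 and 0.0562), and without the first DMSO library for TRIM37 (0.154). TRIM16L is a transcribed pseudogene close in sequence to TRIM16, so their reads may be split between the rows. TRIM47 had 12 and 3 reads under CU-T12-9 and 29 and 23 under DMSO. Its log2 fold change of -1.66 (SE 0.48, edgeR adjusted p = 0.0133) was -2.89 without the first CU-T12-9 library and -1.01 without the second, and the call was lost without the second (adjusted p = 0.0573) and in DESeq2 (0.0502).

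Besides TRIM33, 6 tested members did not pass. The 95% interval of the log2 fold change, not adjusted for the number of genes, ran from -0.30 to 0.01 for TRIM11, from -0.45 to -0.01 for TRIM16, from -0.04 to 0.26 for TRIM41 and from -0.24 to 0.20 for TRIM68. It ran from -0.25 to 0.34 for TRIM39 and from -0.21 to 0.75 for TRIM3, a neuronal ligase with NHL repeats. A fall or rise of 2-fold lay outside all of these intervals. The well-read members TRIM11, TRIM33 and TRIM41 thus had narrow intervals, and the sparsely read TRIM3 a wide one.

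Of the 33 untested members, 11 had a few reads, at most 10 in a library. TRIM58, a ligase of maturing red cells, had 10 and 2 reads under CU-T12-9 and 2 and 3 under DMSO. TRIM74 had 10 and 1 reads against 2 and 3, and is a near-identical copy of TRIM73, which had 4 and 5 reads against 3 and 5. The 22 unread members include TRIM17, TRIM42, TRIM48 and the chromosome 11 copies TRIM49, TRIM51 and TRIM64. Reads that map to more than 1 copy may be missing from the count, as the handling of multi-mapping reads is not given. No read allows a level of up to 0.128 to 0.133 CPM in a CU-T12-9 library and 0.115 to 0.125 CPM in a DMSO library (3 reads; this limit covers counting error alone, as no molecular identifiers mark independent molecules). TRIM32, a widely expressed ligase, was listed at 0 in all libraries. It lies inside ASTN2 on the opposite strand in GENCODE v29, and ASTN2 had 56 and 40 reads under CU-T12-9 and 36 and 59 under DMSO.

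Corrected for exon length (CPM per kb of GENCODE v29 exons, another annotation than that of the counts), TRIM28 was the highest member in both groups, at 179 under CU-T12-9 and 233 under DMSO. Under CU-T12-9 the order went on with TRIM22 at 68.4, TRIM27 at 50.3, TRIM25 at 50 and TRIM21 at 21.1 CPM per kb. Under DMSO TRIM27 stood at 56.3, TRIM25 at 39.1, TRIM22 at 31.1 and TRIM65 at 29.8 CPM per kb. TRIM22 ranked 2 of the 39 tested members under CU-T12-9 and 4 under DMSO. TRIM13 ranked 6 under CU-T12-9 and 13 under DMSO, and TRIM14 ranked 16 and 8.

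Summed over all 72 members, the family took 2335 and 2399 CPM in the CU-T12-9 libraries, against 2204 and 2196 CPM in the DMSO libraries. TRIM28 alone made up 21.2% and 23.5% of the family's reads under CU-T12-9 and 31.4% in each DMSO library. Without TRIM28, the sum averaged 1837 ± 3.93 CPM under CU-T12-9 and 1510 ± 4.16 CPM under DMSO (SD, n = 2 in each group), 1.22 times as much. TRIM22 accounted for 8.65% and 8.61% of the family's reads under CU-T12-9, against 4.27% and 4.18% under DMSO. TRIM13 accounted for 5.74% and 6.04% under CU-T12-9, against 2.56% and 2.51% under DMSO.

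**Figure D3:**
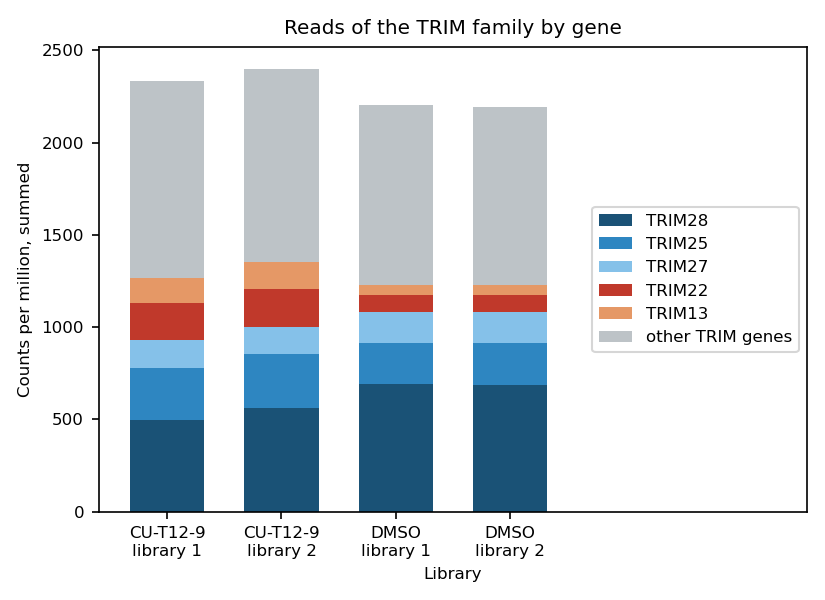
Stacked bars give the summed CPM of the TRIM family in each library, split into TRIM28, TRIM25, TRIM27, TRIM22, TRIM13 and all others. The total is 2335 and 2399 in the CU-T12-9 libraries and 2204 and 2196 in the DMSO libraries, and the TRIM28 part is smaller under CU-T12-9.

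Genes that work with TRIM proteins were taken from short hand-written lists, which do not cover the whole pathways. In the RIG-I pathway, on which TRIM25, TRIM4 and TRIM65 act, 9 of 12 genes were higher (75%, against 32% of all genes tested) and 1 was lower (8.33%, against 33.2%), with a median log2 fold change of 0.56. The sensor gene IFIH1, which encodes MDA5, rose by 2.71, its regulator DHX58 by 1.85 and IRF7 by 1.56, while IRF3 fell by 0.20, a call lost without the first or the second DMSO library. DDX58, which encodes RIG-I, had 329 and 368 reads under CU-T12-9 and 182 and 150 under DMSO (log2 fold change 1.19, SE 0.12, edgeR adjusted p = 2.57e-05). RNF135, a ligase of RIG-I with a TRIM-like layout, had 20 and 29 reads under CU-T12-9 and 31 and 28 under DMSO and did not pass.

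Interferon receptors and the ISGF3 subunits, which switch on interferon-inducible TRIM genes, were higher in 6 of 8 tested cases (75%, against 32% of all genes tested) and lower in none. STAT2 and the receptor chain IFNGR2 rose by 1.89 and 1.74 on the log2 scale. The ligand genes on this list were barely read or unread. IFNB1 had 2 and 0 reads and IFNL1 1 and 0 reads under CU-T12-9, with none under DMSO. IFNG and IFNE had none at all. Other interferon ligand genes, such as the IFNA genes, were not on the list and were not looked at.

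Partners of TRIM28 in silencing moved in both directions, with 4 of 12 higher (33.3%, close to the 32% of all genes tested) and 6 lower (50%, against 33.2%), and a median log2 fold change of -0.12. The heterochromatin protein gene CBX3 fell by 1.03 and the deacetylase gene HDAC2 by 0.51, while ATF7IP rose by 0.40. SETDB1, the histone methyltransferase that TRIM28 recruits, rose by 0.32 (SE 0.06, edgeR adjusted p = 0.00139), opposite to TRIM28. Without the first or the second DMSO library these counts were 2 higher and 3 lower in each case. Of 12 E2 enzymes that TRIM RING fingers use, 4 were higher and 5 lower (33.3% and 41.7%, against 32% and 33.2% of all genes tested). UBE2D1 rose by 1.05, UBE2E2 by 0.56 and UBE2W, the E2 that primes TRIM5 and TRIM21, by 0.55, and UBE2N, which builds signalling chains, fell by 0.51.

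Of the family members with other names, only 2 could be tested, and both rose. MEFV, which encodes pyrin (TRIM20), had 1006 and 925 reads under CU-T12-9 and 313 and 302 under DMSO, a log2 fold change of 1.77 (SE 0.08, edgeR adjusted p = 1.01e-07). PML (TRIM19), the scaffold of nuclear bodies, rose by 0.55. MID1 (TRIM18) had 11 and 8 reads under CU-T12-9 and 8 and 4 under DMSO, too few to be tested, and MID2, TRIML1 and TRIML2 had none.

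**Figure D4:**
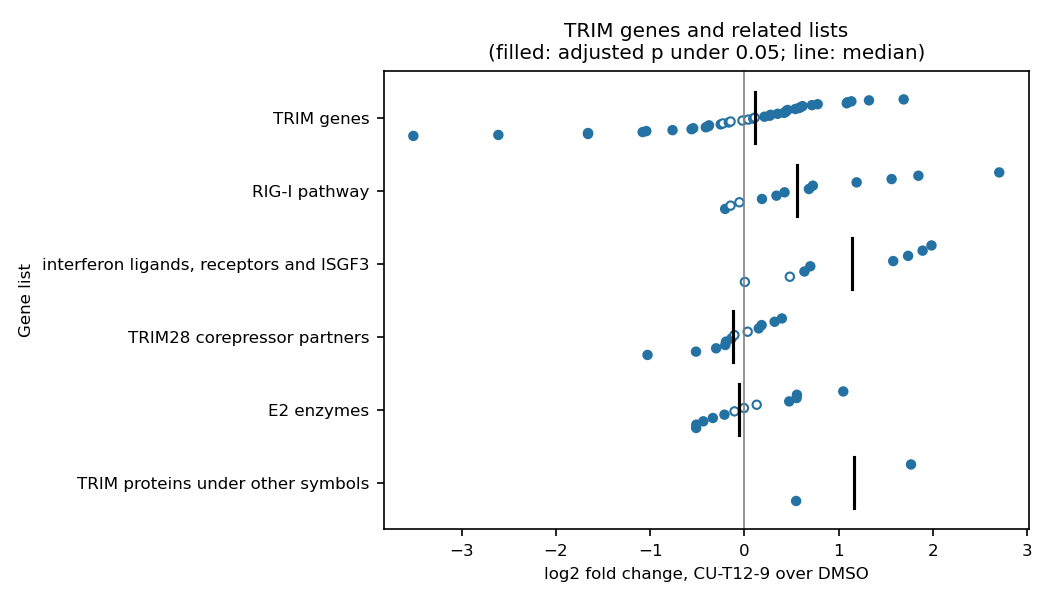
Each point is the log2 fold change of CU-T12-9 over DMSO of a tested gene, for the TRIM genes and 5 related lists, with a line at each list's median. The medians are 0.11 for TRIM genes, 0.56 for the RIG-I pathway, 1.14 for interferon receptors and ISGF3, and -0.12 for TRIM28 partners. They are -0.05 for E2 enzymes and 1.16 for TRIM proteins under other symbols, of which only 2 were tested.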

How the data were processed

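RNA was sequenced from 4 libraries, 2 per group. The authors deposited whole-number read counts per gene symbol. Per the submitters' processing notes, FastQC 0.11.7, TopHat2 and featureCounts 1.5.2 were used with GRCh37. The annotation, the strand setting and the handling of multi-mapping reads: not given in the sources used here. Counts were tested in R 4.3.3 with edgeR 4.0.16 (quasi-likelihood F-test, group only, filterByExpr with a minimum count of 10, TMM, Benjamini-Hochberg over 14018 genes, threshold 0.05). The test was also tried on counts simulated from the means and dispersions of that fit. SE is the ratio of the log2 fold change to the root of F, and 95% intervals use the moderated degrees of freedom. A single read was worth 0.0384 to 0.0442 CPM. Replicate pairs differed beyond sampling noise (chi-square per degree of freedom 6.99 for CU-T12-9 and 2.42 for DMSO). Members and lists were chosen with earlier results of these data known, and are described, not tested as sets. Library values are given for members changed with a log2 fold change of at least 1 and 1 CPM in a group, and shorter values for others; related lists name the 3 largest changes and DDX58, SETDB1 and UBE2W. Other genes named, and library values of members below that size, were chosen after their values were seen. The table holds no coordinates, so positions are those of RefSeq windows. Values of 2 list genes are not reported here. A planned search for RING motifs in proteins was not run. The 11 alternatives included DESeq2 1.42.0 and voom of limma 3.58.1.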

Additional observations from a re-analysis of the deposited data

How the results depend on the processing

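No tested TRIM member called in the main comparison changed direction under any of the 11 alternatives. Counts of TRIM members higher and lower were 18 and 14, and stayed so with DESeq2 size factors, limma-voom and the replicate block. They were 17 and 14 with no filter on low counts, 18 and 12 with a filter of 1 CPM, and 17 and 9 with DESeq2. These settings tested 50, 37 and 39 members. Of all genes tested, 40.5%, 69.3% and 54.0% were called in them, against 65.2% in the main test. In the interferon-inducible list, the 7 higher and 3 lower became 6 and 3, 7 and 2, and 6 and 2 in these 3 settings. Against a fold of 2 they were 3 and 2, with 1 and 0 for interferon-inducible TRIM genes, 3 and 0 for the RIG-I pathway, 0 and 0 for TRIM28 partners, 0 and 0 for E2 enzymes, 3 higher for interferon receptors and ISGF3 and 1 higher for TRIM proteins under other symbols. Leaving out 1 library gave 15 to 21 higher and 10 to 15 lower TRIM members, 0 to 1 lower in the RIG-I pathway, and 2 to 4 higher and 3 to 6 lower TRIM28 partners; an arm then held a lone library, assumed to vary like the other group. The median log2 fold change of TRIM members was 0.22 with the 1 CPM filter and 0.0494 to 0.2325 with 1 library left out. The cause of these shifts was not tested. Same-numbered libraries did not deviate together (correlation 0.00795 across genes), and the replicate block called 9143 genes against 9135.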
